A study of Mus musculus with 39 samples.

Results

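The genes described here belong to the insulin-like growth factor (IGF) system of the mouse testis: the ligand Igf1, the receptors Igf1r and Igf2r, and the binding protein genes Igfbp2, Igfbp3, Igfbp4, Igfbp5, Igfbp6 and Igfbp7. They were chosen by gene symbol. Of 23 array probes carrying one of these 9 symbols, 18 had a detection p-value below 0.01 on 3 or more arrays and were kept, out of 23665 kept probes among 45281 on the array, which measure 12518 genes. The other 5, 1 of Igf1r and 4 of Igfbp7, were detected on 0 arrays. Every gene retained at least 1 kept probe, and Igfbp6 and Igfbp7 had 1 each.

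RNA came from testes in organ culture, a method in which immature testis is kept alive in a dish, and from testes that developed in the animal. Cultures had begun at 7.5 days post partum (dpp) and were sampled after 2, 4, 6, 7, 9 and 14 days, at ages equivalent to 9.5, 11.5, 13.5, 14.5, 16.5 and 21.5 dpp. In vivo testes were taken at those 6 ages and at 7.5 dpp, the starting age. The labels give male mouse testis and age for all groups, and no strain, genotype or culture medium is stated in them. Of 39 samples, 38 arrays were used, 3 per group in 13 groups except in vivo 13.5 dpp, which had 2.

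IGF1 acts through the receptor tyrosine kinase IGF1R to promote cell growth, proliferation and survival. IGF2R, the cation-independent mannose 6-phosphate receptor, takes up IGF2 for degradation and carries lysosomal enzymes. The binding proteins hold IGFs in extracellular fluid and govern how much reaches the receptors, and proteases that cut them release the ligand. In the testis the IGF system is known for roles in Sertoli cell proliferation and Leydig cell development.

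Against in vivo testis of the same age, Igfbp3 was higher in culture at all 6 ages, Igfbp5 was higher at 4 and Igfbp2 was lower at 4. Promoter sequences are shown for these 3 binding protein genes, on which the results mainly turn. They are RefSeq sequences of build GRCm38.p6, from 250 bases before to 50 bases after the annotated transcription start, written 5′ to 3′ on the gene's strand. All 9 genes matched an entry. Igfbp3 lies at chr11:7213874-7214173 on the minus strand, Igfbp5 at chr1:72874816-72875115 on the minus strand, and the first of the annotated Igfbp2 start sites at chr1:72824230-72824529 on the plus strand. Capitals mark matches, on either strand, to TATAAA or TATATA (forms of the TATA box), GGGCGG (the GC box), CCAAT or TGACTCA (the AP-1 site). Matches of different motifs may overlap in principle and did not in the windows printed, and TATATA was added to the search after these sequences had been seen.
Igfbp3: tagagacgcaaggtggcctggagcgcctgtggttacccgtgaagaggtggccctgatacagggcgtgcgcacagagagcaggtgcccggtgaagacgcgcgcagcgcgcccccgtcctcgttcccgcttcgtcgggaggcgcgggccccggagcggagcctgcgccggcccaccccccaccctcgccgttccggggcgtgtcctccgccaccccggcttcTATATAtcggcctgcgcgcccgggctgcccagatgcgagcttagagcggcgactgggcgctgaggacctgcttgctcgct
Igfbp5: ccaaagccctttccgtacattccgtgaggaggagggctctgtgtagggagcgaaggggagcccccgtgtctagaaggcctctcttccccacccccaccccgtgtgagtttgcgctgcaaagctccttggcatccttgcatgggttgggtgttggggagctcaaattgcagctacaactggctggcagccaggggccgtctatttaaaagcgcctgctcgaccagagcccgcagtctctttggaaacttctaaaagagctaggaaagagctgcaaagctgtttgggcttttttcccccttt
Igfbp2: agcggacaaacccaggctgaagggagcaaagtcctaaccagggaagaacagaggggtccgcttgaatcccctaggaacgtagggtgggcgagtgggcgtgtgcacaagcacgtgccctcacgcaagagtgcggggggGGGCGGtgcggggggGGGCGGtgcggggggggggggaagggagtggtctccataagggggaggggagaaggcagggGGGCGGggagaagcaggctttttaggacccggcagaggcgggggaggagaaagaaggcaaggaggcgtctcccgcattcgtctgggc
The Igfbp3 window was 71.7% G or C and held TATATA starting at -30 from the start site, while the Igfbp5 window was 56.3% G or C and held none of these letters. The Igfbp2 window was 67% G or C, with GGGCGG at -113, -98 and -37. The median over 32851 promoters was 52.7%, and TATAAA occurred in 13.6% of them, TATATA in 5.67%, GGGCGG in 35.7%, CCAAT in 37.4% and TGACTCA in 5.2%. These matches are descriptions of letters, and no binding was measured.

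Values below are normalized log2 signals of the gene's brightest kept probe, its lead probe, and differences are log2 differences ± SE. A difference was called when its limma p-value, Benjamini-Hochberg adjusted over all kept probes, was below 0.05 and its size at least 1, which is 2-fold. Levels of different genes come from different probes and are not compared. Separate animals or cultures are not stated for the 3 samples of a group, so the p-values measure only the spread between these samples, which may be technical.

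All 9 lead probes were detected on every array used. Arrays detected 35.6% to 43.9% of their probes and correlated within groups at 0.929 to 0.992. The culture day 7 arrays had the lowest mean signals, 368 to 437, against 439 to 789 on the others. In vivo 9.5 dpp replicate 2, with the lowest detected share, and in vivo 11.5 dpp replicate 1 stood apart from the rest of their groups, and results that rest on them are given without them as well. Of 12 Sertoli cell markers measured (among them Sox9, Amh and Wt1), all were detected in every group except 1 marker at in vivo 21.5 dpp.

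Against testis of the same age, 24 of the 54 differences over genes and ages were called, 19 higher and 5 lower in culture. At 9.5 dpp 2 genes were higher and 1 lower, where 4.65% and 4.23% of all kept probes were called. At 11.5 dpp 2 were higher and 2 lower (4.61% and 5.13% of all probes), and at 13.5 dpp 2 were higher and 1 lower (5.51% and 2.77%). Higher genes numbered 3 at 14.5 dpp (5% of all probes), 4 at 16.5 dpp (4.69%) and 6 at 21.5 dpp (17.6%). Lower ones numbered 0 at 14.5 dpp (5.68%), 1 at 16.5 dpp (3.81%) and 0 at 21.5 dpp (15.4%), by limma, and 6 of the 9 genes had an unadjusted p below 0.05 at 14.5 dpp and at 21.5 dpp in either direction. The median difference of the 9 genes was 0.79, 0.56, 0.57, 0.79, 0.82 and 1.50 at the 6 ages, while that of all kept probes was 0.00, 0.00, -0.05, -0.01, -0.02 and 0.23. In the median centring alternative, log2 signals were centred without background correction or quantile normalization. With it the median of the 9 genes was 0.30 at 13.5 dpp and 0.20 at 14.5 dpp. Genes called higher at 4 or more ages were Igf1, Igfbp3 and Igfbp5, as were 2.37% of all probes, and Igfbp2 was called lower at 4, as were 1.09%. Igf1r, Igf2r, Igfbp3 and Igfbp7 had every culture array above every in vivo array at all 6 ages, as did 2.13% of all probes.

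**Figure D1:**
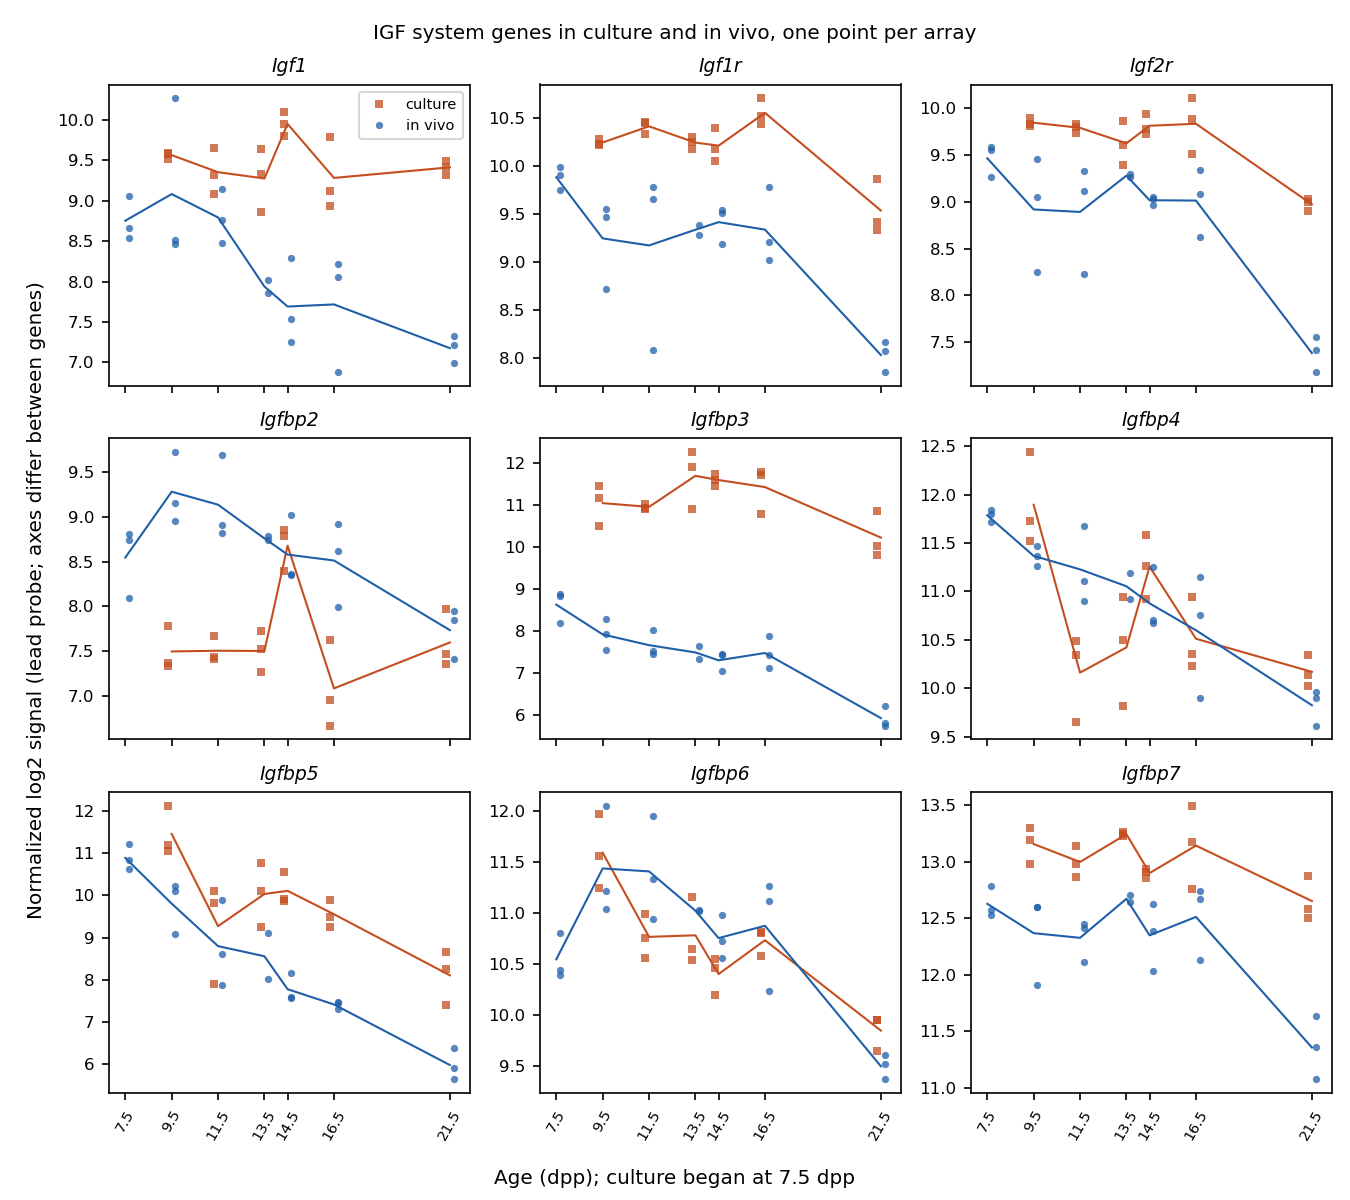
Normalized log2 signal of the lead probe of each gene against age in dpp, 1 point per array, culture as squares and in vivo as circles, with lines through group means. Igfbp3 lies at 9.81 or above on every culture array and at 8.87 or below on every in vivo array, while the culture and in vivo points of Igfbp6 overlap at 4 of 6 ages.

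**Figure D2:**
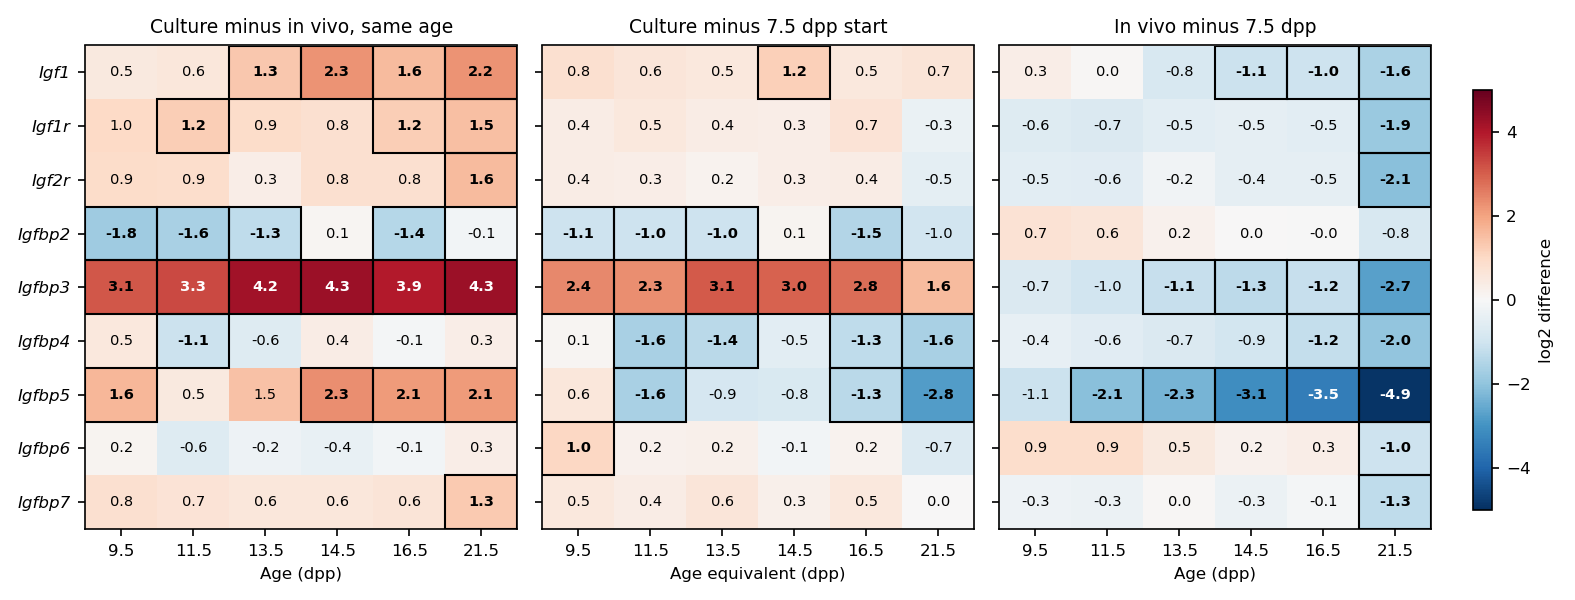
Log2 differences of the 9 genes (rows) at 6 ages in dpp (columns) for culture minus in vivo of the same age, culture minus the 7.5 dpp start, and in vivo minus 7.5 dpp. Boxed bold cells were called, 24, 19 and 18 of 54. The last 2 panels share the 7.5 dpp arrays.

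Igf1, the ligand, fell in the animal and was called lower at none of the culture times. Its signals after 14 days of culture were 9.42, 9.32 and 9.50, against 6.99, 7.21 and 7.33 in vivo at 21.5 dpp. After 7 days they were 10.10, 9.80 and 9.95, against 7.54, 8.29 and 7.25 in vivo. The groups did not overlap at 13.5 dpp or later. The difference was 1.34 ± 0.39 at 13.5 dpp, 2.26 ± 0.35 at 14.5 dpp (4.79-fold, limma adjusted p = 2.79e-05), 1.57 ± 0.35 at 16.5 dpp and 2.24 ± 0.35 at 21.5 dpp (4.72-fold, limma adjusted p = 2.83e-06).

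At 9.5 dpp Igf1 was 9.58, 9.60 and 9.52 in culture, against 8.52, 10.27 and 8.46 in vivo, where the middle value is in vivo 9.5 dpp replicate 2. The difference of 0.48 ± 0.35 became 1.08 (adjusted p = 0.0137), a call, when that array and in vivo 11.5 dpp replicate 1 were left out. The difference between culture and in vivo varied with age (limma F test adjusted p = 0.00577). The second Igf1 probe was called only at 14.5 dpp (1.18) and 21.5 dpp (1.99), and gave -0.38, -0.42, 0.13 and 0.53 at the other 4 ages in order. The 13.5 dpp call was lost without in vivo 13.5 dpp replicate 2 (1.42) or 3 (1.26), or culture day 6 replicate 2 (1.31) or 3 (1.16), and was 0.91 with the authors' values. With median centring the differences at 13.5 and 14.5 dpp were 0.84 and 1.38. Those at 16.5 and 21.5 dpp were 1.0002 and 1.38 with the authors' values, and with array weights that at 16.5 dpp was 1.021, all 3 still calls.

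In vivo Igf1 was lower than at 7.5 dpp at 14.5 dpp (-1.06 ± 0.35), 16.5 dpp (-1.04 ± 0.35) and 21.5 dpp (-1.58 ± 0.35, 2.99-fold lower). The call at 14.5 dpp was lost without in vivo 14.5 dpp replicate 1 (-0.99) or 3 (-0.84) or in vivo 7.5 dpp replicate 2 (-0.91). The call at 16.5 dpp was lost without in vivo 16.5 dpp replicate 3 (-0.62) or in vivo 7.5 dpp replicate 2 (-0.88), and with the authors' values all 3 were below 2-fold (-0.63, -0.60 and -0.88). In culture 1 of 6 times passed against the start, day 7 (1.20 ± 0.35), which was lost without in vivo 7.5 dpp replicate 1 (1.09, adjusted p = 0.0614) and was 0.50 with median centring and 0.29 with the second probe. The F test over the start and 6 culture times was not called for Igf1 (limma adjusted p = 0.117). It was called with the second probe (0.0242), with median centring (0.0479), with only the 7.5 dpp and culture groups fitted (0.00561) and with array weights (0.00205), while the other alternatives gave adjusted p from 0.052 to 0.149.

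Igf1r, the signalling receptor, was 9.42, 9.86 and 9.34 after 14 days of culture, against 8.07, 7.86 and 8.17 in vivo at 21.5 dpp. All culture arrays were above all in vivo arrays, by 1.50 ± 0.27 (2.84-fold, limma adjusted p = 2.13e-05). It was called higher also at 16.5 dpp (1.22 ± 0.27) and at 11.5 dpp (1.24 ± 0.27), where in vivo replicate 1 was 8.08 beside 9.78 and 9.66. Without that array the 11.5 dpp difference was 0.69 and no longer a call, and the second probe gave -0.05 there. The second probe was called at 21.5 dpp (1.40) and not at the other ages, and the dimmest of the 3 at 0 of 6 ages, from -0.15 to 0.38 (limma, 0 of 6 also at an unadjusted p below 0.05). Relative to 7.5 dpp, Igf1r was lower in vivo at 21.5 dpp (-1.85 ± 0.27), while in culture its differences from the start ran from -0.35 to 0.67, none of them called although 1 had an unadjusted limma p below 0.05.

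Igf2r was 8.99, 9.03 and 8.90 after 14 days of culture, against 7.19, 7.42 and 7.55 in vivo at 21.5 dpp. The groups were separate, by 1.58 ± 0.24 (3.00-fold, limma adjusted p = 1.42e-06), and by 1.94 with the second probe. At the earlier ages its differences from in vivo were 0.34 to 0.92, below 2-fold, although it was called at 14.5 dpp with the second probe (1.05, limma adjusted p = 0.00757) and at 9.5 dpp with median centring (1.017, limma adjusted p = 0.0182). With the authors' values the 21.5 dpp difference was 0.94 (adjusted p = 3.27e-05). In the animal Igf2r was lower than at 7.5 dpp only at 21.5 dpp (-2.07 ± 0.24, 4.21-fold lower, and -1.32 with the authors' values).

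Igfbp3 encodes the main carrier of IGFs in blood, which also binds them in tissue. Its signals were 11.18, 11.46 and 10.51 after 2 days of culture, against 8.29, 7.55 and 7.92 in vivo at 9.5 dpp. After 7 days they were 11.60, 11.74 and 11.45 in culture, against 7.04, 7.46 and 7.42 in vivo. The culture arrays lay above the in vivo arrays throughout.

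After 14 days Igfbp3 signals were 9.81, 10.85 and 10.02 in culture, against 5.75, 5.82 and 6.22 in vivo at 21.5 dpp. The difference was 3.12 ± 0.31 at 9.5 dpp (8.72-fold, limma adjusted p = 2.54e-08), 3.29 ± 0.31 at 11.5 dpp (9.78-fold), 4.20 ± 0.35 at 13.5 dpp (18.4-fold), 4.29 ± 0.31 at 14.5 dpp (19.6-fold), 3.95 ± 0.31 at 16.5 dpp (15.4-fold) and 4.30 ± 0.31 at 21.5 dpp (19.6-fold, limma adjusted p = 4.29e-13). The 21.5 dpp difference was 2.47 with the authors' values. Igfbp3 ranked 54th, 25th, 14th, 9th, 17th and 11th from the top of the 23665 probes at these ages. Being called higher at all 6 ages was shared with 0.486% of kept probes. The second Igfbp3 probe differed by 3.09 to 4.11 and was called at the same 6 ages. Whether the culture difference varied with age was not resolved (limma F test adjusted p = 0.0632).

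Igfbp3 also exceeded its own starting level. The difference from the start, when its signals were 8.19, 8.83 and 8.87, was 2.42 after 2 days, 2.33 after 4, 3.07 after 6, 2.97 after 7, 2.80 after 9 and 1.60 after 14 (SE 0.31 each, limma adjusted p from 3.15e-08 to 0.000232). In the animal it fell to 5.93 ± 0.25 at 21.5 dpp, against 8.63 ± 0.38 at 7.5 dpp (SD, n = 3 each), a difference of -2.70 ± 0.31 (6.50-fold lower). It was also lower at 13.5 dpp (-1.14 ± 0.35), 14.5 dpp (-1.32 ± 0.31) and 16.5 dpp (-1.15 ± 0.31). At 11.5 dpp the difference was -0.96 (limma adjusted p = 0.0474), under 2-fold, and -1.15 (adjusted p = 0.0356), a call, without the 2 arrays that stood apart. The 13.5 dpp call was lost without in vivo 7.5 dpp replicate 2 (-1.04) or 3 (-1.02), or in vivo 13.5 dpp replicate 2 (-0.99) or 3 (-1.28), and the 16.5 dpp call without in vivo 16.5 dpp replicate 3 (-0.97). With the authors' values the differences at 13.5, 14.5 and 16.5 dpp were -0.66, -0.75 and -0.66, below 2-fold, and that at 21.5 dpp was -1.19.

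Igfbp5, a matrix-associated binding protein, was higher in culture than in vivo at 4 of 6 ages, and in both it was lower at the last age than at 7.5 dpp. In culture its signals were 12.11, 11.05 and 11.18 after 2 days, 10.55, 9.91 and 9.85 after 7 days, and 8.67, 8.25 and 7.41 after 14 days. At each of these times the culture arrays lay above the in vivo arrays of the same age. The difference from in vivo was called at 9.5 dpp (1.65 ± 0.48, 3.13-fold), 14.5 dpp (2.33 ± 0.48, 5.01-fold), 16.5 dpp (2.13 ± 0.48) and 21.5 dpp (2.12 ± 0.48, limma adjusted p = 0.000397). It was 0.47 ± 0.48 at 11.5 dpp, where culture day 4 replicate 3 was at 7.90 beside 10.09 and 9.82, and 1.47 ± 0.54 at 13.5 dpp (adjusted p = 0.0611, and 0.0345 without the 2 arrays that stood apart). The other kept probes gave 1.28 to 2.88, called at 5 ages, and 1.42 to 2.73, called at 6. The 9.5 dpp call was lost without in vivo 9.5 dpp replicate 2 (1.29, adjusted p = 0.0893) or culture day 2 replicate 1 (1.31, adjusted p = 0.0779). With the authors' values the 16.5 and 21.5 dpp differences were 1.39 and 0.86, the second no longer a call. With median centring the 14.5 dpp difference was 1.46, and with array weights the 9.5 dpp difference was 1.0008.

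In vivo Igfbp5 signals were 11.21, 10.83 and 10.61 at 7.5 dpp, 10.10, 9.09 and 10.21 at 9.5 dpp, 7.60, 8.17 and 7.56 at 14.5 dpp, and 5.65, 5.92 and 6.39 at 21.5 dpp. The groups at 7.5 and 21.5 dpp were far apart, with a difference of -4.90 ± 0.48 (29.8-fold lower, limma adjusted p = 2.31e-10), and -3.06 with the authors' values. At this age Igfbp5 ranked 23650th from the top of 23665 probes. It was also lower than at 7.5 dpp at 11.5 dpp (-2.09 ± 0.48), 13.5 dpp (-2.33 ± 0.54), 14.5 dpp (-3.10 ± 0.48) and 16.5 dpp (-3.47 ± 0.48). The 11.5 dpp call was lost without in vivo 11.5 dpp replicate 1 (-1.62, adjusted p = 0.0653) and the 13.5 dpp call without in vivo 13.5 dpp replicate 3 (-1.78, adjusted p = 0.146).

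Relative to the start, cultured Igfbp5 was lower after 4 days (-1.61 ± 0.48), 9 days (-1.33 ± 0.48) and 14 days (-2.78 ± 0.48, 6.85-fold lower). The day 4 call was lost without culture day 4 replicate 3 (-0.93) or in vivo 7.5 dpp replicate 1 (-1.45). The day 9 call was lost without any 1 of the 3 in vivo 7.5 dpp arrays or of culture day 9 replicates 1 and 2, with values from -1.17 to -1.47. The second probe gave -1.21 and -0.98 at these times, with adjusted p of 0.075 and 0.155.

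Igfbp2, a binding protein abundant in fetal tissue, was lower in culture at 4 of 6 ages. Its signals were 7.78, 7.37 and 7.33 after 2 days of culture, against 8.96, 9.73 and 9.16 in vivo at 9.5 dpp. After 4 days they were 7.43, 7.67 and 7.41, against 9.69, 8.91 and 8.82 in vivo. Culture and in vivo arrays did not overlap at either time. The difference was -1.79 ± 0.28 at 9.5 dpp (3.45-fold lower, limma adjusted p = 3.49e-05), -1.63 ± 0.28 at 11.5 dpp (3.11-fold lower), -1.26 ± 0.32 at 13.5 dpp and -1.43 ± 0.28 at 16.5 dpp.

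After 7 days the cultured Igfbp2 signals were 8.85, 8.40 and 8.79, against 8.37, 9.03 and 8.35 in vivo at 14.5 dpp, and the groups overlapped (0.10 ± 0.28, adjusted p = 0.832). They overlapped again at 21.5 dpp, with 7.97, 7.35 and 7.47 in culture, against 7.84, 7.94 and 7.42 in vivo (-0.14 ± 0.28). The culture difference varied with age (limma F test adjusted p = 0.000335). Without culture day 7 and in vivo 14.5 dpp the same test, an alternative chosen after seeing the data, gave an adjusted p of 0.00719. The second probe gave the same calls, with -1.47, -1.14, -1.28 and -1.03 at the 4 called ages and 0.23 at 14.5 dpp. The day 7 arrays also had the lowest mean signals, and the part of array quality in this value was not tested. The 13.5 dpp call was lost without in vivo 13.5 dpp replicate 2 (-1.24) or 3 (-1.28), and with the authors' values the differences at 9.5, 11.5, 13.5 and 16.5 dpp were -1.14, -1.03, -0.74 and -0.75, the last 2 no longer calls.

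Cultured Igfbp2 was lower after 2, 4, 6 and 9 days (-1.05, -1.04, -1.05 and -1.46, SE 0.28 each) than at the start, when its signals were 8.09, 8.74 and 8.81. The first 3 lie close to the 2-fold limit. They were lost without in vivo 7.5 dpp replicate 2 or 3, without culture day 2 replicate 2 or 3, without culture day 4 replicate 3 and without culture day 6 replicate 3, each for its own contrast, with values from -0.91 to -0.99. With median centring the first 3 were -0.88, -0.90 and -0.99 and no longer calls. With the authors' values the 4 were -0.60, -0.60, -0.60 and -0.77, and with the second probe the first 3 were -0.53, -0.57 and -0.94. In the animal Igfbp2 was the 1 gene of 9 not called lower at 21.5 dpp (-0.81 ± 0.28, adjusted p = 0.0121).

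Igfbp7, a relative that binds IGFs weakly and is secreted by vessels and stroma, was 12.87, 12.50 and 12.58 after 14 days of culture, against 11.64, 11.36 and 11.07 in vivo. The culture arrays were the higher ones, by 1.30 ± 0.19 (2.45-fold, limma adjusted p = 9.12e-07). At the other 5 ages the difference was 0.55 to 0.79, with adjusted p from 0.00289 to 0.0634. Between 7.5 and 21.5 dpp in vivo it fell by 1.27 ± 0.19, while after 14 days of culture it differed from the start by 0.02 ± 0.19.

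Igfbp4 was called against in vivo at 1 age and Igfbp6 at 0. Igfbp4, the substrate of the protease PAPP-A, was 10.49, 10.35 and 9.65 after 4 days of culture, against 11.68, 11.10 and 10.90 in vivo at 11.5 dpp. These groups did not overlap (-1.07 ± 0.29, 2.09-fold lower, limma adjusted p = 0.00793), and the other 5 ages gave -0.63 to 0.53. The call was lost without in vivo 11.5 dpp replicate 1 (-0.84) or culture day 4 replicate 3 (-0.81), with the authors' values (-0.998, under the limit), with median centring (-0.98), with array weights (-0.74) and with the second probe (-0.65). The culture difference of Igfbp4 varied with age (limma F test adjusted p = 0.00726).

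Igfbp4 was lower than at the start after 4 days (-1.62 ± 0.29), 6 days (-1.36 ± 0.29), 9 days (-1.27 ± 0.29) and 14 days (-1.62 ± 0.29, 3.06-fold lower). With its second probe the day 4 and day 9 values were -0.73 and -0.55 and no longer calls. In vivo it was lower at 16.5 dpp (-1.19 ± 0.29) and 21.5 dpp (-1.96 ± 0.29), the first of which was lost without in vivo 16.5 dpp replicate 3 (-0.83) and with array weights (-0.75). Igfbp6, which prefers IGF2, was called at 0 of 6 ages against in vivo by limma, with 1 unadjusted p below 0.05 and differences from -0.64 to 0.35. It was higher after 2 days of culture than at the start (1.04 ± 0.25), a call lost without in vivo 7.5 dpp replicate 1 (0.97) or 3 (0.99) or culture day 2 replicate 1 (0.85). That call was also lost with median centring (0.95) and with array weights (0.88). In vivo it was lower at 21.5 dpp than at 7.5 dpp (-1.05 ± 0.25), lost without in vivo 7.5 dpp replicate 2 (-0.92) or in vivo 21.5 dpp replicate 2 (-0.98).

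**Figure D3:**
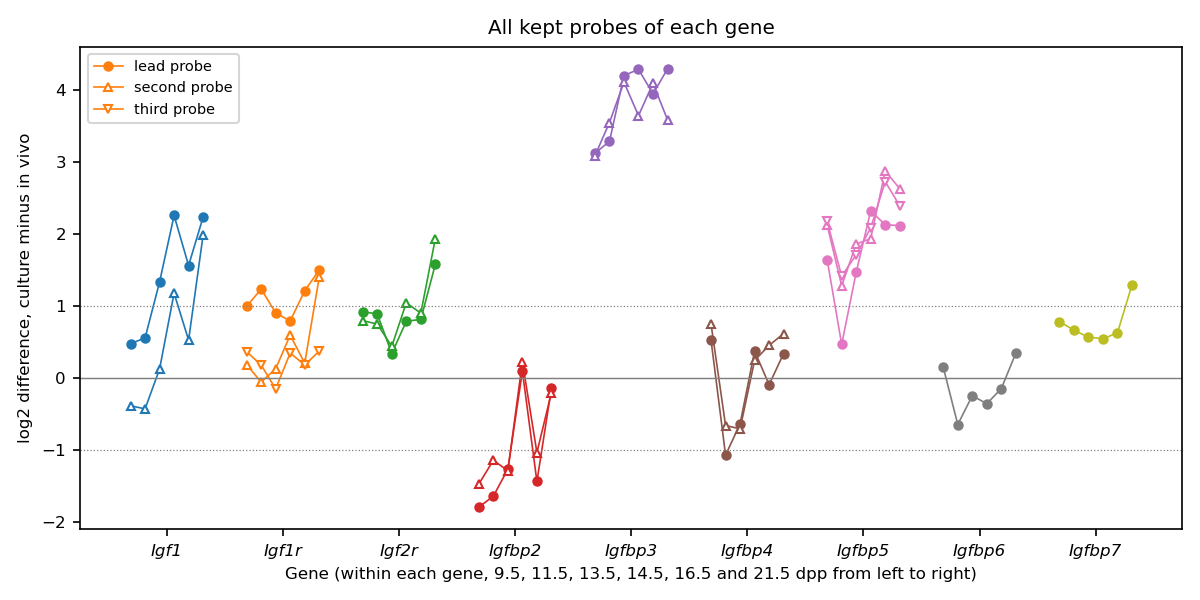
Log2 difference, culture minus in vivo, of every kept probe of each gene at the 6 ages from left to right; filled circles are lead probes and open triangles the other probes, and dotted lines mark 2-fold. The Igfbp3 probes lie together between 3.09 and 4.30, whereas the lead and second probes of Igf1r differ at 11.5 dpp, 1.24 against -0.05.

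Over the 7 in vivo ages the F test was called for all 9 genes, as for 77% of all kept probes, and over the start and 6 culture times for 8, as for 57.7%. The culture difference itself varied with age for 3 genes, Igf1, Igfbp2 and Igfbp4, while 54.8% of all probes did so. Against 7.5 dpp in vivo, 18 of 54 differences were called and all were lower: 1 at 11.5 dpp (1.89% of all probes were lower), 2 at 13.5 dpp (4.45%), 3 at 14.5 dpp (6.14%), 4 at 16.5 dpp (5.96%) and 8 at 21.5 dpp (26.2%). At 9.5 dpp limma called 0, where 6 of 9 had an unadjusted p below 0.05 and 0.875% of probes were called lower. No gene was called higher at the 6 ages, where 1.14%, 2.05%, 3.28%, 6.77%, 6.67% and 19.6% of probes were. At 21.5 dpp the median of the 9 genes was -1.85 and that of all probes -0.31. Over the same interval the median of 10 interstitial progenitor markers was -2.68 and 8 of them were called lower. Lower calls also numbered 7 of 9 peritubular (median -1.41), 7 of 12 Sertoli (-1.59), 7 of 12 endothelial (-1.10) and 7 of 11 spermatogonia markers (-1.59). In the Sertoli and spermatogonia lists 1 marker each was higher. Of 9 Leydig markers 4 were lower (-0.63), and of 11 macrophage markers 0 were lower and 1 was higher (0.37). All 9 spermatid markers measured were called higher (median 5.91). The mean level of 9 spermatocyte markers in vivo was 5.93 at 7.5 dpp, where 5 were undetected, and 10.93 at 21.5 dpp. In whole testis RNA, fewer cells of a type, a smaller share of the total RNA and less RNA per cell cannot be told apart. The part of these markers in the member results was not tested.

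Against the start, the culture calls numbered 19 of 54, 8 higher and 11 lower. After 2 days 2 genes were higher and 1 lower (4.29% and 4.32% of all probes), after 4 days 1 and 3 (5.54% and 6.76%), after 6 days 1 and 2 (4.35% and 3.85%), after 7 days 2 and 0 (3.94% and 4.18%), after 9 days 1 and 3 (5.68% and 5.86%) and after 14 days 1 and 2 (7.7% and 6.65%). At day 7 none of the 9 was lower by limma, and 2 of the 9 differences, both higher, had an unadjusted p below 0.05. With median centring, without background correction or quantile normalization, the median of all probes at day 7 moved to -0.30. Igfbp4 (-1.12) and Igfbp5 (-1.33) were then called lower at that time. Igfbp3 supplied 6 of the 8 higher calls, and Igfbp2, Igfbp4 and Igfbp5 all 11 lower ones.

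For Igfbp3 and Igfbp4 the in vivo means were lowest at 21.5 dpp and highest at 7.5 dpp, and in 5 of 6 neighbouring pairs of the order the arrays overlapped. For Igfbp3 the culture means were lowest after 14 days (10.23) and highest after 6 days (11.70), with 4 of 5 neighbouring pairs overlapping. For Igf1 the in vivo means were lowest at 21.5 dpp (7.18) and highest at 9.5 dpp (9.08), and the culture means lay between 9.28 and 9.95. Igf1r, Igf2r and Igfbp5 were lowest at 21.5 dpp and highest at 7.5 dpp in vivo, with 5, 4 and 3 of 6 neighbouring pairs overlapping, and lowest after 14 days in culture. Igfbp6 and Igfbp7 were also lowest after 14 days in culture (9.85 and 12.65) and at 21.5 dpp in vivo (9.50 and 11.36). Igfbp2 culture means were lowest after 9 days (7.08) and highest after 7 days (8.68), again with overlap in 4 of 5 pairs.

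Across the 13 group means, which share arrays, the course of Igf1r was like that of Igf2r (r = 0.96) and Igfbp7 (r = 0.96), and Igf1 was like Igfbp3 (r = 0.88). Igfbp2 ran apart from these, with r = -0.57 against Igfbp3. Among 9927 other genes the courses most like each member's were those of Myo1e and Fes for Igfbp3 (r = 0.97 each), Col5a1 and Masp1 for Igfbp5 (0.99 and 0.97), Srpx2 and Cngb1 for Igf1 (0.96 and 0.95), and H3c10 and Iba57 for Igfbp2 (0.94 and 0.93). For the others they were Zfp275 and Clip1 for Igf1r, AU020206 and Zfp275 for Igf2r, Nat8l and Glis2 for Igfbp4, Atg9b and Ascl2 for Igfbp6, and Flii and Denn2b for Igfbp7, with r from 0.92 to 0.99. These are descriptions over 13 points.

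Genes that cut or shield the binding proteins were also followed. Of 12 measured, 3, 3, 3, 2, 3 and 7 were higher in culture at the 6 ages and 1, 1, 0, 0, 0 and 0 lower, with medians of 0.35, 0.13, 0.01, 0.18, 0.36 and 1.07 beside the medians of all probes given above. Of all kept probes 4.65%, 4.61%, 5.51%, 5%, 4.69% and 17.6% were called higher at these ages. The shares called lower were 4.23%, 5.13%, 2.77%, 5.68%, 3.81% and 15.4%. These shares stand beside the counts of the other gene and marker lists below as well. Mmp2, a gelatinase, was higher at all 6 ages, from 1.36 ± 0.38 at 9.5 dpp to 3.56 ± 0.38 at 16.5 dpp, and its inhibitor Timp1 was higher by 1.12 ± 0.45 to 3.12 ± 0.45. Plau, the urokinase-type plasminogen activator, was higher at 5 ages, by 2.56 ± 0.28 at 11.5 dpp and 3.01 ± 0.28 at 16.5 dpp. Only 2 of 3 in vivo arrays detected Plau at 11.5 dpp and at 16.5 dpp, so these values rest partly on undetected signals. In vivo at 9.5, 13.5 and 21.5 dpp it was not well above background on any array, so differences there are bounds. For these the higher of the probe's own signal and the lowest signal of any detected probe on the array was taken for the undetected group. Plau was at least 4.37-fold higher at 9.5 dpp, at least 9.91-fold at 13.5 dpp and at least 1.88-fold at 21.5 dpp (limma adjusted p = 1.32e-07, 2.48e-09 and 0.00247). Stc2, a stanniocalcin that inhibits PAPP-A, was lower at 9.5 dpp (-1.21 ± 0.31) and 11.5 dpp (-1.14 ± 0.31) and higher at 21.5 dpp (1.21 ± 0.31).

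Of 6 measured relatives of the binding proteins, 2, 1, 1, 3, 1 and 4 were higher at the 6 ages and 1 was lower at 9.5 dpp, with medians from -0.15 to 1.59. At 21.5 dpp 17.6% of all probes were higher. Esm1, a proteoglycan of endothelial cells, was higher at all 6, by 2.19 ± 0.36 at 9.5 dpp to 3.85 ± 0.36 at 16.5 dpp, and at least 2.36-fold at 21.5 dpp (limma adjusted p = 0.000115), where no in vivo array detected it. In vivo, 2 of 3 arrays detected Esm1 at 9.5 dpp and 1 of 3 at 14.5 dpp and at 16.5 dpp. The differences at these ages therefore rest partly on undetected signals. Htra1, a secreted serine protease, was higher at 3 ages (1.04 to 1.39), Htra3 only at 21.5 dpp (1.85 ± 0.33), and Kazald1 was lower at 9.5 dpp (-1.85 ± 0.32) and higher at 14.5 dpp (1.06) and at 21.5 dpp, where it was undetected in vivo (at least 3.51-fold, limma adjusted p = 1.2e-06).

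Among 5 other measured ligand, receptor and ligand-degrading genes 1, 1, 0, 1, 1 and 1 were higher and 2, 2, 2, 1, 1 and 2 lower, with medians from -0.34 to 0.53. Igf2, the fetal growth factor, was higher in culture at 14.5 dpp (1.17 ± 0.26), 16.5 dpp (1.25 ± 0.26) and 21.5 dpp (1.89 ± 0.26). Insr, the insulin receptor, was higher at 9.5 and 11.5 dpp (1.01 and 1.04). Insl3, a relaxin-family hormone of Leydig cells, was lower at all 6 ages, with differences from -3.67 ± 0.34 to -2.26 ± 0.34, and Ins2 was lower at 9.5 and 11.5 dpp (-2.39 and -1.87) and at 13.5 dpp, where it was undetected in culture (at least 2.26-fold lower, limma adjusted p = 0.0114). Downstream of the receptor, 3, 4, 4, 2, 2 and 11 of 29 genes were higher and 1, 0, 0, 1, 0 and 1 lower, with medians from -0.06 to 0.50. At 21.5 dpp 17.6% of all probes were higher and 15.4% lower. Irs2, an adaptor of the IGF1 and insulin receptors, was higher at 9.5, 11.5, 13.5 and 21.5 dpp (1.49, 1.49, 2.07 and 1.77). Gsk3b, a kinase inhibited by AKT, was higher at 9.5, 11.5, 13.5 and 16.5 dpp (1.22, 1.49, 1.05 and 1.41). Tsc1, a restraint on mTOR, was higher at 3 ages, while Pdpk1, which activates AKT, was higher at 11.5 and 13.5 dpp (1.44 and 2.73) and lower at 14.5 dpp (-1.50 ± 0.33).

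Of 5 genes of growth hormone input, which drives Igf1 in liver, 2 were higher at 14.5 dpp and 4 at 21.5 dpp (median 1.32, against 0.23 for all probes). Of all probes 5% were higher at 14.5 dpp and 17.6% at 21.5 dpp. Ghr, the growth hormone receptor, was higher by 1.01 ± 0.25 at 14.5 dpp and 2.04 ± 0.25 at 21.5 dpp, Jak2 by 1.32 and Socs2 by 1.25 at 21.5 dpp, and Stat5a by 1.06 at 14.5 dpp. Of 9 genes of IGF2R cargo and lysosomal sorting, 5 were higher at 21.5 dpp (median 1.03) and 1 at 14.5 dpp, among them Tgfb1 at both (1.05 at 21.5 dpp and 1.65 at 14.5 dpp), Gnptab (1.40), M6pr (1.05) and Nagpa (1.03). The 2 measured IGF2 mRNA-binding genes moved in opposite directions at 21.5 dpp, Igf2bp1 higher (1.41 ± 0.24) and Igf2bp3 lower (-1.24 ± 0.27).

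Markers of other cell types moved in the same comparisons. Of 12 endothelial markers, 6, 7, 8, 7, 8 and 2 were higher in culture at the 6 ages, with medians of 0.83, 1.14, 1.49, 1.71, 2.11 and 0.41. Their mean level ran from 8.55 to 9.43 on the culture day 9 arrays, against 6.89 to 7.28 in vivo at 16.5 dpp, and from 6.65 to 7.51 after 14 days, against 6.56 to 6.76 in vivo at 21.5 dpp. Of 10 interstitial progenitor markers 0, 0, 0, 4, 3 and 8 were higher at the 6 ages and 1, 2, 1, 2, 1 and 0 lower, with medians of 0.08, -0.16, -0.09, 0.64, 0.56 and 1.77. Their mean levels were 8.99 to 9.20 after 14 days of culture, against 7.52 to 7.75 in vivo at 21.5 dpp. In culture all 10 were detected after 14 days, and 1 was undetected in vivo at 21.5 dpp. At that age 6 genes of the IGF set and 17.6% of all probes were called higher.

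All 9 acute inflammation genes measured were higher at 9.5 dpp (median 5.30), and 4 to 7 at later ages (medians 1.43 to 2.21), with 1 lower at 21.5 dpp. Of 11 macrophage markers 10, 4, 3, 3, 2 and 2 were lower at the 6 ages and 1, 1, 1, 1, 1 and 3 higher, with medians from -2.30 at 9.5 dpp to 0.49 at 21.5 dpp, and 6 of them were undetected after 2 days of culture. Leydig markers were lower for 3, 3, 2, 1, 2 and 2 of 9 genes at the 6 ages (medians from -0.57 to -0.16), and 1 was higher at each of the last 4 ages. Peritubular markers were lower for 2, 1, 0, 0, 0 and 1 of 9 genes at the 6 ages, and 1 was higher at 21.5 dpp. Their medians ran from -0.45 at 9.5 dpp to 0.70 at 21.5 dpp. Of 12 Sertoli markers 1, 0, 0, 3, 1 and 5 were higher and 2, 2, 1, 0, 1 and 0 lower. The Sertoli medians ran from -0.18 at 13.5 dpp to 0.87 at 21.5 dpp. All 9 spermatid markers were lower at 21.5 dpp (median -5.05), as were 3 of 9 spermatocyte markers (median -0.77). Of 11 spermatogonia markers 0, 0, 0, 1, 0 and 4 were higher at the 6 ages and 3, 1, 0, 1, 2 and 0 lower. Their medians ran from -0.30 at 9.5 dpp to 0.62 at 21.5 dpp. Of 5 erythrocyte genes 3 or 4 were lower at every age (medians -7.49 to -1.89). The part of these cell types in the member results was not tested.

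**Figure D4:**
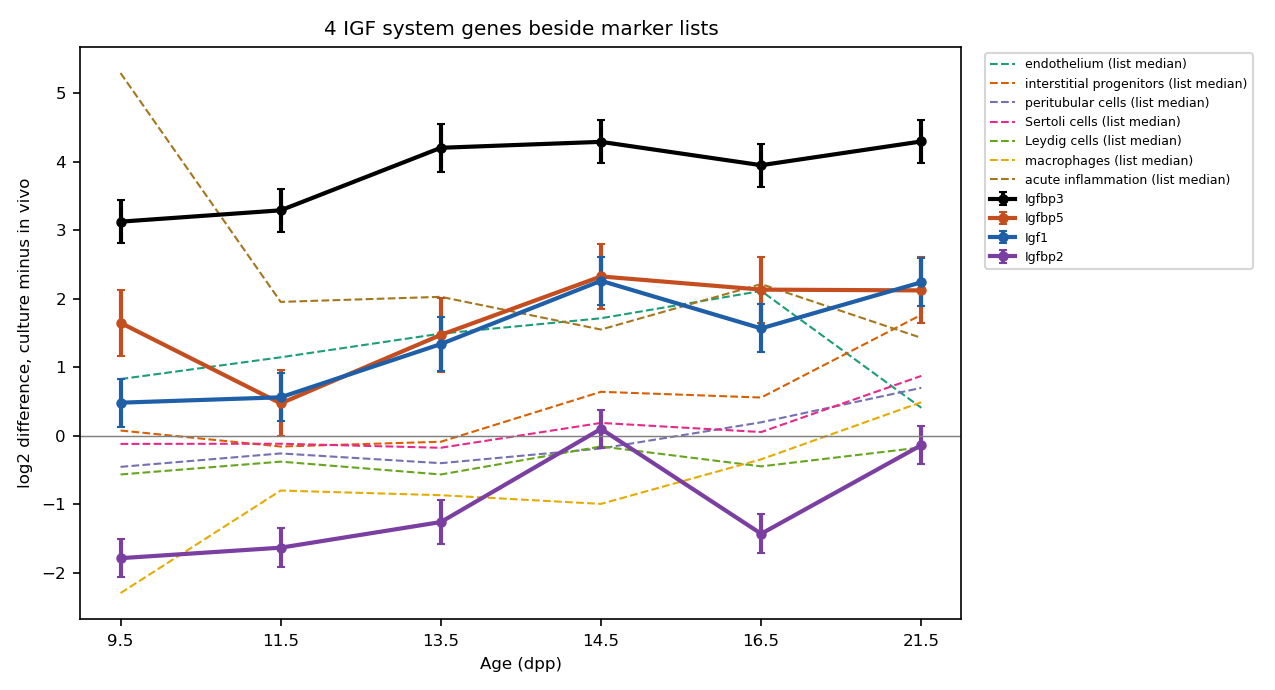
Log2 difference, culture minus in vivo, of Igfbp3, Igfbp5, Igf1 and Igfbp2 (solid lines, bars are SE) at 6 ages in dpp, with the median of 7 marker lists (dashed). Igfbp3 stays at 3.12 or above, and the endothelial median drops to 0.41 at 21.5 dpp.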

How the data were processed

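RNA of mouse testis was hybridised to Illumina bead arrays. The deposited intensity table holds 1 signal per probe and array on a linear scale, not normalized between arrays, and the authors' detection p-value per probe and array, per the file headers. A second deposited table holds the authors' normalized log2 values, made with lumi per the submitters' processing notes, with version and steps not given in the sources used here. Its columns had a median of 7.47 each and a rank correlation of 1 with the signals of the same 38 arrays, so scale and direction are known and the normalization method is not. In the intensity data, 2 value columns, a signal and its detection p-value, were headed by an array code matching no label and were not used, so 38 arrays entered where the design had assumed 39, and in vivo 13.5 dpp had 2.

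Signals were background-corrected, quantile-normalized and log2-transformed with limma 3.58.1 neqc (offset 16, R 4.3.3), with the negative controls inferred from the detection p-values. Probes with a detection p-value below 0.01 on 3 or more arrays were kept, and 13 group means were fitted to them with limma (eBayes with trend, 25 residual degrees of freedom, Benjamini-Hochberg over 23665 probes). Calls needed an adjusted p below 0.05 and 2-fold. Gene names came from the platform annotation, where 34885 probes had 1 symbol, 18 several and 10378 none. The fit and the calls were tested on simulated log2 values with known changes in brighter probes. The background correction, normalization and probe filter were not tested in this way. The number of arrays limits the precision.

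All members were described by the kept probe of highest mean. From each of 7 lists of the pathway up to 4 genes called at most ages were named, and for likeness the 2 genes with the highest correlation of group means. Members and lists were chosen with earlier results of these data known. Alternatives covered normalization, filters, probe choice, array weights, the prior, the level of the test, the samples fitted, the replicate block and each array left out. Median centring was applied to log2 signals that had not been background-corrected.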

Additional observations from a re-analysis of the deposited data

Results flagged for a closer look

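The difference between culture and in vivo varied with age for 3 of the 9 genes by the limma F test of that difference itself. For Igfbp2 the adjusted p was 0.000335, with differences of -1.79 at 9.5 dpp, 0.10 at 14.5 dpp and -0.14 at 21.5 dpp. For Igf1 it was 0.00577, with 0.48 at 9.5 dpp and 2.24 at 21.5 dpp. For Igfbp4 it was 0.00726, with 0.53 at 9.5 dpp and -1.07 at 11.5 dpp.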

How the results depend on the processing

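Of the 61 called differences of the 9 genes, 60 kept their direction in each of their 11 or 12 alternatives and in their 5 or 6 fits that left out 1 array of the groups compared, 33 were called in all of these alternatives and 41 in all of these leave-one-out fits. The exception in direction was Igf1r at 11.5 dpp, -0.0516 with the second probe. Igfbp3 against in vivo was called at all 6 ages in its 12 alternatives and 5 or 6 such fits. The number of genes whose culture difference varied with age was 3, and 6 with median centring, 5 with the second probe, 9 with array weights and 6 without the 2 arrays that stood apart. Leaving out 1 array gave 3 to 6 (6 without in vivo 9.5 dpp replicate 2). Calls against 7.5 dpp in vivo numbered 18, and 11 with the authors' values, also with all 39 arrays. Calls of culture against the start numbered 19, and 12 with the second probe. With 1 array left out these counts ran from 15 to 20 and from 14 to 20, that against in vivo of the same age from 22 to 26, that of genes varying in vivo stayed at 9 and that of genes varying over culture ran from 5 (without culture day 14 replicate 3) to 8. Same-numbered arrays of different groups deviated together in 62 of 222 pairs (r above 0.1, median 0.012), and 26 of 38 arrays correlated best with their own number, a hint from the data and not the design, so numbers were not treated as pairs. With the replicate block the counts were 24, 18 and 19, and 9, 8 and 3 for the F tests, and no count changed. Over all probes the calls against in vivo numbered 18716, and 11516 with median centring, 5380 with the authors' values (5333 with all 39 arrays) and 9889 at gene level. Against 7.5 dpp in vivo they numbered 20120, and 12602, 7715 (7624) and 11499, and for culture against the start 14939, and 8809, 3669 (3674) and 8318. The share of calls that were higher was 52.4%, 47.3%, 66.6% and 46.8% at 9.5, 11.5, 13.5 and 14.5 dpp against in vivo, and 75.9%, 62.1%, 36.8% and 5.73% with median centring. With the authors' values it was 62.6% at 9.5 dpp, 78.0% at 13.5 dpp, 70.0% at 16.5 dpp (against 55.2%) and 39.7% at 21.5 dpp (against 53.2%). Against the start, median centring gave 29.8%, 6.49% and 78.7% after 6, 7 and 14 days, in place of 53%, 48.5% and 53.7%, and 24.2% and 29.9% at 9.5 and 11.5 dpp in vivo, in place of 56.5% and 52.0%. Median centring moved the median of all probes by over 0.1 at 13.5 dpp (-0.17) and 14.5 dpp (-0.26) against in vivo, at days 6, 7 and 14 against the start (-0.12, -0.30 and 0.12) and at 21.5 dpp in vivo (-0.15, against -0.31). The authors' values gave 60% after 2 days and 64.6% after 14 days. The cause of these shifts was not tested. Leaving out the 2 arrays, the authors' values of all 39 arrays and leaving out day 7 were chosen after seeing the data.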
